A study of Mus musculus with 7 samples.

Results

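The genes described here are 10 that act on the shape and topology of mitotic chromosomes: 7 condensin subunit genes (Smc2, Smc4, Ncapd2, Ncapd3, Ncapg, Ncapg2 and Ncaph), the topoisomerase II genes Top2a and Top2b, and Mki67. They were taken by name, and every probe set that the platform annotation gives to 1 of them alone was used, which is 25 of the 45101 probe sets on the array. Of these, 23 passed a filter on low values and 2 did not, and all 10 genes are among the 11089 genes tested. RNA came from granule neuron precursors, which divide in the early postnatal cerebellum before they become granule neurons, sorted from mice of the genotype Math1-Cre/Ptc-loxp/Nestin-CFP. Math1-Cre acts in the lineage that expresses Math1, also called Atoh1, and there deletes Ptch1, whose product holds back Hedgehog signalling. Nestin-CFP is a fluorescent reporter of Nestin, an intermediate filament protein of neural progenitors. Cells were sorted by the reporter into a Nestin-positive fraction (4 samples, replicates 1, 3, 4 and 5) and a Nestin-negative fraction (3 samples, replicates 1, 4 and 5). Both fractions are of this genotype and neither was cultured or treated, so no sample analysed here is of mice without the Ptch1 deletion. The age is postnatal day 7 in the sample labels, which call the tissue medulloblastoma, while the series description gives postnatal day 4. The labels do not say how many animals gave each sample or that samples came from separate animals, so p-values measure the spread between these samples, part of which may be technical.

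Condensins are ring-shaped complexes that use ATP to extrude loops of DNA and so compact chromosomes for mitosis. Both condensin I and condensin II are built on a heterodimer of the SMC proteins encoded by Smc2 and Smc4. Condensin I adds the products of Ncapd2, Ncapg and Ncaph and reaches chromosomes after the nuclear envelope breaks down, whereas condensin II adds those of Ncapd3, Ncapg2 and Ncaph2 and is nuclear already in interphase. Topoisomerase II passes one DNA duplex through a transient break in another. Its alpha form, from Top2a, is made by dividing cells and separates sister chromatids, and its beta form, from Top2b, is also made by postmitotic neurons, where it acts at long neuronal genes. Mki67 encodes Ki-67, a protein that coats mitotic chromosomes and is used widely as a marker of cycling cells.

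The array values are MAS5 signals, linear intensities per probe set that the authors scaled to the same trimmed mean of 500 on each array. The median signal of an array lay between 64.4 and 94.5, and a probe set was kept if it reached the array median on at least 3 arrays. Nes, the gene behind the sort, had a log2 change of 1.73 ± 0.21 (SE), Nestin-positive minus Nestin-negative (limma, adjusted p = 0.0282), which checks the labels and is no finding. Of 16 listed granule neuron precursor markers 15 were measured, and each of them, Atoh1 included, reached the array median in at least 1 sample of either fraction. Their median log2 change was 0.045. Of these changes 8 were positive and 7 negative, and limma called 0 of the 15. At an unadjusted p under 0.05 in limma, Barhl1, Ptch1 and Ccnd1 were higher and Nhlh1 was lower. These are 4 of 15, against 1599 of all 11089 genes tested in either direction. With the replicate block described next 3 rose, as did 3.60% of all genes. Replicates 1, 4 and 5 occur in both fractions. Same-numbered samples deviated from their group means together, with r = 0.71, 0.39 and 0.47 across genes, so values from a second fit with the replicate number as a block, over the 3 pairs alone, are given where they change a call. This pairing comes from the data and not from the labels.

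All 10 genes had a higher mean log2 signal in Nestin-positive than in Nestin-negative samples, by 0.25 (Ncapd2) to 0.78 (Ncapg) on the log2 scale. Their median log2 change was 0.44, against -0.026 over all genes tested, of which 45.5% had a positive change. Without the block, limma called 0 of the 10 at an adjusted p under 0.05, where 0.171% of all genes tested were called higher, and 7 of the 10 passed an unadjusted p under 0.05, against 5.33% of all genes in that direction. With the replicate block 7 rose, against 3.60% of all genes. These were Top2a, Ncapg, Ncapg2, Smc2, Mki67, Smc4 and Ncapd2. Ncapd3, Ncaph and Top2b did not pass in either fit. The groups did not overlap for 5 of the 10 genes, against 5.87% of all genes higher without overlap. The calls thus come only from fits with a replicate block, and which genes pass depends on the pairs used. A random block over all 7 arrays called 5, Smc2, Ncapg, Ncapg2, Top2a and Mki67. Without the pair of replicate 1, Top2a (adjusted p = 0.0056) and Ncapg2 (adjusted p = 0.00996) passed and the other 8 did not. Without the pair of replicate 4, 8 passed, with Ncapd2 lost (0.0961) and Ncapd3 (0.0043) and Ncaph (0.0032) gained. Without the pair of replicate 5, 6 passed, with Mki67 lost (0.0962). The number of all 11089 genes called higher also differed between these fits. It was 290 with the random block and 182, 567 and 311 without the pair of replicate 1, 4 and 5.

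**Figure D1:**
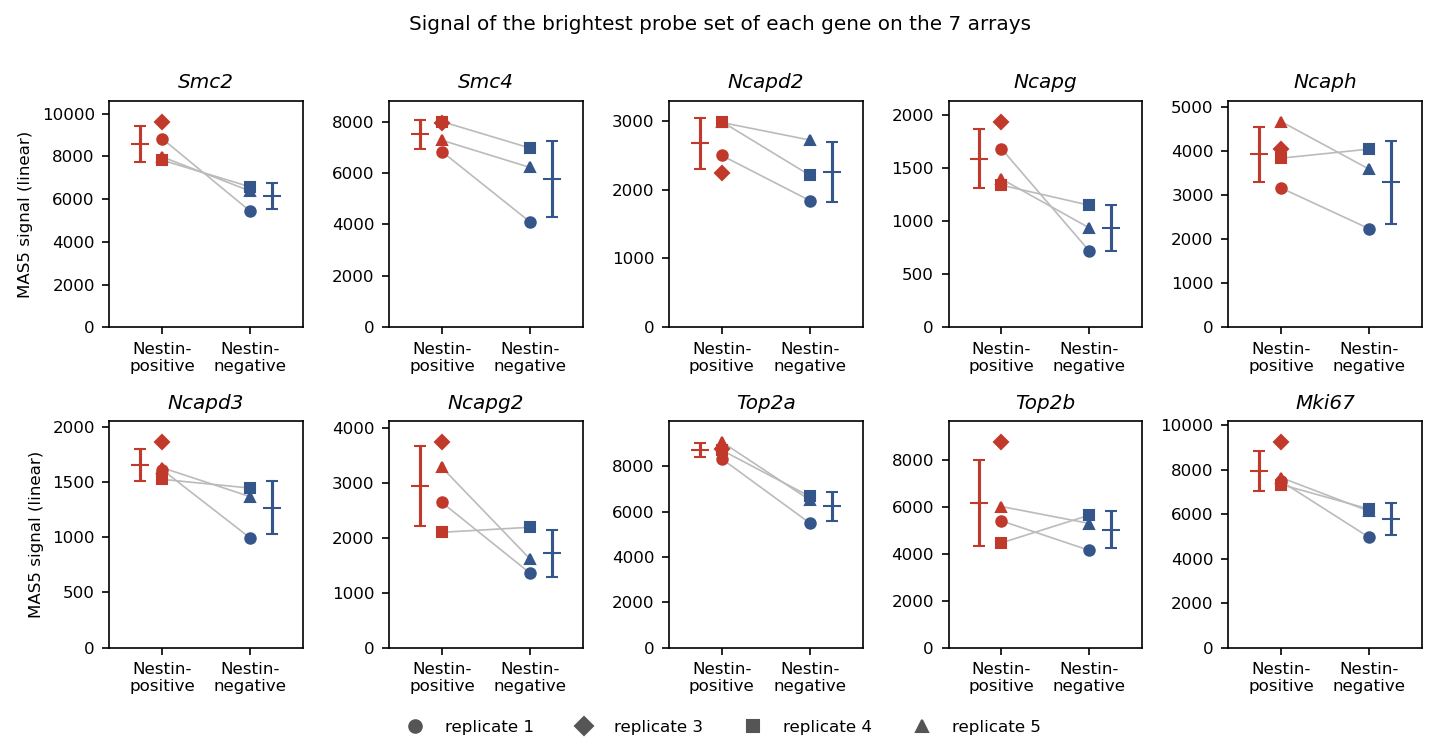
MAS5 signal (linear, y axis from 0) of the brightest probe set of each of the 10 genes in Nestin-positive samples (left, red, n = 4) and Nestin-negative samples (right, blue, n = 3). Symbols give the replicate number, grey lines join same-numbered samples, and the bars beside the points are mean ± SD. The fractions do not overlap for Smc2, Ncapg, Ncapd3, Top2a and Mki67, and Nestin-negative replicate 1 is the lowest array for all 10 genes.

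Top2a had the smallest unadjusted p of the 10 genes in both fits. Its brightest probe set gave 8343, 8757, 8723 and 9088 in Nestin-positive replicates 1, 3, 4 and 5, against 5500.2, 6677 and 6519.8 in Nestin-negative replicates 1, 4 and 5. Every Nestin-positive sample lay above every Nestin-negative one, and the Nestin-positive values lay close together. Top2a averaged 8728 ± 305 in Nestin-positive samples (SD, n = 4) and 6232 ± 639 in Nestin-negative samples (SD, n = 3). This is a log2 change of 0.49 ± 0.10 (SE), or 1.40-fold, with an adjusted p of 0.0692 (limma), and 0.49 ± 0.10 with the block (adjusted p = 0.0023). Top2a passed in all 7 fits with a replicate block, at adjusted p-values from 0.00016 to 0.0364. A dimmer Top2a probe set gave 1617, 739, 446 and 471 in Nestin-positive samples and 783, 381 and 415 in Nestin-negative ones. There the replicate 1 array was the highest of each fraction, and the fractions overlapped. The other Top2a probe set had signals from 1.22 to 3.05 on all arrays and was removed by the filter.

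Promoters are shown for Top2a, its paralog Top2b, Mki67, and Ncapg and Ncapg2, the subunit genes with the largest log2 changes by the brightest probe set (by the mean of probe sets Smc2, at 0.82, lies above Ncapg2, at 0.77). Each line gives the 250 bases before the gene's start in RefSeq on GRCm38.p6, 5′ to 3′ on the gene's own strand, and 9 of the 10 genes had an entry in that table (Smc4 had none in it). Capitals mark matches on either strand to CCAAT (or ATTGG), the letters of the box that NF-Y binds, to TTTGAA (or TTCAAA) and TTCGAA, letters of the cell cycle genes homology region found in promoters of many mitotic genes, and to TTTGGCGC and TTTCGCGC, letters of E2F sites. None of the marked matches overlap. The windows are chr11:99024190-99024439 (minus strand) for Top2a, chr14:16364956-16365205 (plus strand) for Top2b, chr7:135716380-135716629 (minus strand) for Mki67, chr5:45669675-45669924 (plus strand) for Ncapg and chr12:116405186-116405435 (plus strand) for Ncapg2.
Top2a: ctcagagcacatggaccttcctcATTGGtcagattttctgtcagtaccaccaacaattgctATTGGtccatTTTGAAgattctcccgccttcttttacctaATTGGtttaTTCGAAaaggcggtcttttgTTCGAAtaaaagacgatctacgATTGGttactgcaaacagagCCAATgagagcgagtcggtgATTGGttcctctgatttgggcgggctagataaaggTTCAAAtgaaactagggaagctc
Top2b: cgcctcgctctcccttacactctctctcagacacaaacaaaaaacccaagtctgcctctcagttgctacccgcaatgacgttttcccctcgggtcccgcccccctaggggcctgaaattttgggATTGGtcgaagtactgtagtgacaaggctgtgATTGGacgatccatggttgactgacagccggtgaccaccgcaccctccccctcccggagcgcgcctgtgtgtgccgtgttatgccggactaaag
Mki67: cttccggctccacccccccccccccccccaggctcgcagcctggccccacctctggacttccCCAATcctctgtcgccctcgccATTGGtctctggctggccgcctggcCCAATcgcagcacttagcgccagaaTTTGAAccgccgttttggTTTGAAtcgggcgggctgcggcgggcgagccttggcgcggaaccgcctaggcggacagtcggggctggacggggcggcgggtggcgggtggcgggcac
Ncapg: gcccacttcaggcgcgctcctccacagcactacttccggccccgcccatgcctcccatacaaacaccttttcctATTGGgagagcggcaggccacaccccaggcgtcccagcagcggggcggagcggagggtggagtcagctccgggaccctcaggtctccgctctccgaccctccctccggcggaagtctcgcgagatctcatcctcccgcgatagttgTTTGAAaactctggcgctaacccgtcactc
Ncapg2: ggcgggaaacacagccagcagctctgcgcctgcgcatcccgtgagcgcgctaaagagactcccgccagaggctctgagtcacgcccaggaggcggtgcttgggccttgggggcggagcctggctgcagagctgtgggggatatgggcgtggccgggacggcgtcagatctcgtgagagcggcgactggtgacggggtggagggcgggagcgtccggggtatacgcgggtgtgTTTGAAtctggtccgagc

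The Top2a window held 6 matches to CCAAT, 2 to TTTGAA and 2 to TTCGAA, and the Top2b window held 2 to CCAAT and 0 to the others. Mki67 had 3 matches to CCAAT and 2 to TTTGAA, the nearer TTTGAA starting 98 bases before the gene's start. Ncapg had 1 of each, with TTTGAA 30 bases before the start, and Ncapg2 had TTTGAA alone, 18 bases before the start. Over the 10 windows of the genes described here (Ncapd3 has 2), TTTGAA was present in 7, against 16% of the 32851 promoters in the table and 10.2% of the 11697 of genes tested. Of the 7, 1 is the second Ncapd3 window, whose match starts 249 bases before that start, at the window's far edge. CCAAT was present in 6, against 33.9% in the table and 35.5% of those of genes tested. The 22 windows of the S phase and G2/M list held CCAAT in 20 and TTTGAA in 6. TTCGAA was present in 1 window (1.34% of all), TTTGGCGC in 1, that of Ncapd2 (0.417% of all), and TTTCGCGC in 0 (0.256% of all). Ncaph and the first Ncapd3 window held none of these letters. A match describes the sequence and shows no binding.

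Top2b behaved less evenly across arrays than Top2a. Its brightest probe set gave 5399.7, 8769.6, 4462 and 6012 in Nestin-positive samples, against 4140.2, 5645 and 5287 in Nestin-negative samples. Nestin-positive replicate 3 stood far above the other arrays, Nestin-positive replicate 4 lay below 2 of the 3 Nestin-negative arrays, and the fractions overlapped. The log2 change was 0.26 ± 0.21 (SE; limma, adjusted p = 0.636, 95% interval -0.21 to 0.73). It was 0.076 ± 0.12 with the block, which leaves out replicate 3 (adjusted p = 0.774). A dimmer probe set gave 0.23 ± 0.28, and the last one, with signals of 33.5 to 73.2, was removed by the filter.

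Whether Top2a and Top2b changed unequally was tested on their difference within each array. Log2 Top2a minus log2 Top2b was 0.63, -0.0021, 0.97 and 0.60 in Nestin-positive replicates 1, 3, 4 and 5, and 0.41, 0.24 and 0.30 in Nestin-negative replicates 1, 4 and 5. Nestin-positive replicate 3 lay below all Nestin-negative arrays and the other Nestin-positive arrays lay above them. The fractions differed by 0.23 on the log2 scale, and an exact permutation test, two-sided over 35 splits, gave p = 0.429 (smallest p allowed 0.0286). Leaving out Nestin-positive replicate 3 gave a difference of 0.41 (exact permutation p = 0.1, the smallest that 20 splits allow), and leaving out Nestin-positive replicate 4 gave 0.089 (p = 0.8). Within pairs the difference was positive in 3 of 3 (0.22, 0.72 and 0.29), where the exact sign-flip test cannot go below its p of 0.25.

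Mki67 has 1 probe set. It gave 7473, 9246, 7326 and 7637 in Nestin-positive samples, against 4949.6, 6223 and 6125 in Nestin-negative samples. The fractions did not overlap, and Nestin-positive replicate 3 was the highest of all arrays. Mki67 thus had a log2 change of 0.46 ± 0.13 (SE), or 1.37-fold (limma, adjusted p = 0.133). With the block it was 0.38 ± 0.10 (adjusted p = 0.0191). The call ended without the pair of replicate 1 (adjusted p = 0.179) and without that of replicate 5 (0.0962), and in the blocked fit over all 23585 kept probe sets (0.0551).

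Of the 2 genes of the shared SMC core, Smc2 has 5 probe sets and Smc4 has 3. The brightest Smc2 probe set gave 8830.4, 9630.1, 7824 and 7979.6 in Nestin-positive samples, against 5432, 6570.0 and 6375 in Nestin-negative samples, without overlap. Its log2 change was 0.48 ± 0.12 (SE; limma, adjusted p = 0.0955), and 0.43 ± 0.11 with the block (adjusted p = 0.0118; 0.146 without the pair of replicate 1). All dimmer Smc2 probe sets had larger log2 changes than the brightest. The 3 with mean signals from 1008 to 3189 in Nestin-positive samples had log2 changes of 0.87 to 1.11, none overlapped between fractions, and all 3 rose in the blocked fit over probe sets. The highest of these changes stands for means of 1772 ± 399 (SD, 4 Nestin-positive samples) and 851 ± 331 (SD, 3 Nestin-negative samples), or 2.15-fold on the log scale. The dimmest Smc2 probe set overlapped, with 118 to 531 in Nestin-positive and 113 to 229.7 in Nestin-negative samples. Which Smc2 probe set stands for the gene thus sets the size of its change: 0.82 with the mean of all 5, against 0.48 with the brightest.

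Smc4 showed the same dependence. Its brightest probe set gave 6831, 7944, 7999 and 7272 in Nestin-positive samples, against 4098, 6969.8 and 6214 in Nestin-negative samples. Nestin-positive replicate 1 lay just below Nestin-negative replicate 4, so that the fractions overlapped. On the log2 scale the change was 0.42 ± 0.17 (SE; limma, adjusted p = 0.302), and 0.39 ± 0.11 with the block (adjusted p = 0.0290). The call ended without the pair of replicate 1 (0.402), with a random block (0.0751) and with the block and quantile normalization (0.0599). Without the block and without Nestin-negative replicate 1 the change was 0.19. The other 2 probe sets did not overlap and had log2 changes of 0.79 and 0.67. Both rose in the blocked fit over probe sets (adjusted p = 0.0132 and 0.0158), where the brightest did not pass (0.0851).

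Among the subunits of condensin I, Ncapg had the largest log2 change. It encodes a subunit built of HEAT repeats, a helical repeat that binds DNA and other proteins. Its signal was 1686, 1942, 1341 and 1400.1 in Nestin-positive samples, against 718, 1151 and 937 in Nestin-negative samples, with no overlap. Ncapg had a log2 change of 0.78 ± 0.19 (SE), or 1.71-fold (limma, adjusted p = 0.0955). With the block it was 0.68 ± 0.14 (adjusted p = 0.0033; 0.0863 without the pair of replicate 1). A dimmer Ncapg probe set had a log2 change of 0.88 ± 0.38 with overlapping fractions.

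Ncapd2, the other HEAT repeat subunit of condensin I, gave 2496, 2234, 2988 and 2975 in Nestin-positive samples, against 1841, 2209 and 2719.7 in Nestin-negative samples, and the fractions overlapped. Nestin-positive replicate 3, the highest array for 6 of the 10 genes, was the lowest Nestin-positive one for Ncapd2. The log2 change was 0.25 ± 0.16 (limma, adjusted p = 0.534). With the block, and so without replicate 3, it was 0.33 ± 0.11 (adjusted p = 0.0471), which missed the threshold without the pair of replicate 1 (0.257) or 4 (0.0961), with quantile normalization (0.0957), with a random block (0.147), and in the blocked fit over probe sets (0.109). Ncaph encodes the kleisin, the subunit that closes the ring of condensin I. Its brightest probe set, whose suffix marks probes that can match other transcripts, gave 3154, 4026, 3830.5 and 4659 in Nestin-positive and 2231, 4036 and 3580.1 in Nestin-negative samples. The fractions overlapped, and the log2 change of 0.29 ± 0.21 (limma, adjusted p = 0.589; 0.154 with the block) was 0.030 without Nestin-negative replicate 1. With the block and without the pair of replicate 4 it was 0.44 and passed (adjusted p = 0.0032). The second Ncaph probe set did not overlap, with 1625 to 2078 in Nestin-positive and 1351 to 1543 in Nestin-negative samples and a log2 change of 0.32 ± 0.11 (limma, adjusted p = 0.412; 0.0627 with the block).

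Of the subunits of condensin II, Ncapg2, the counterpart of Ncapg, had 2642, 3746, 2098 and 3279 in Nestin-positive samples, against 1355, 2190.1 and 1614 in Nestin-negative samples. Nestin-positive replicate 4 lay just below Nestin-negative replicate 4, and the other 3 Nestin-positive arrays lay above all Nestin-negative ones. The log2 change was 0.77 ± 0.22 (SE), or 1.70-fold (limma, adjusted p = 0.141). With the block it was 0.64 ± 0.15 (adjusted p = 0.0075), and Ncapg2 passed in all 7 fits with a replicate block (adjusted p up to 0.0474). Ncapd3, the counterpart of Ncapd2, gave 1614, 1866, 1526 and 1632 in Nestin-positive samples, against 993, 1446 and 1368 in Nestin-negative samples. These did not overlap, but the log2 change of 0.40 ± 0.15 did not pass (limma, adjusted p = 0.259; 0.0789 with the block). It was 0.48 with the block and without the pair of replicate 4, where it passed (adjusted p = 0.0043), and 0.23 without the block and without Nestin-negative replicate 1. Ncaph2, the kleisin of condensin II, belongs to the list of partner genes and had a log2 change of -0.055 ± 0.14 (adjusted p = 0.892) without the block and of 0.021 ± 0.11 with it (adjusted p = 0.948).

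Over the 23 kept probe sets of the 10 genes, all 23 log2 changes were positive, where 51.1% of the 23585 kept probe sets on the array were. The fractions did not overlap, with Nestin-positive higher, for 12 of the 23, against 4.66% of all kept probe sets. Without the block limma called 0.00% of all kept probe sets higher, and so 0 of the 23. Of the 23 here, 14 passed an unadjusted p under 0.05, against 3.86% of all in that direction. With the block 9 of the 23 rose, against 1.31% of all. The 9 belong to 5 genes: Smc2 (4 probe sets), Smc4 (2), Ncapg, Ncapg2 and Top2a (1 each). Probe sets of a gene are not independent of each other.

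**Figure D2:**
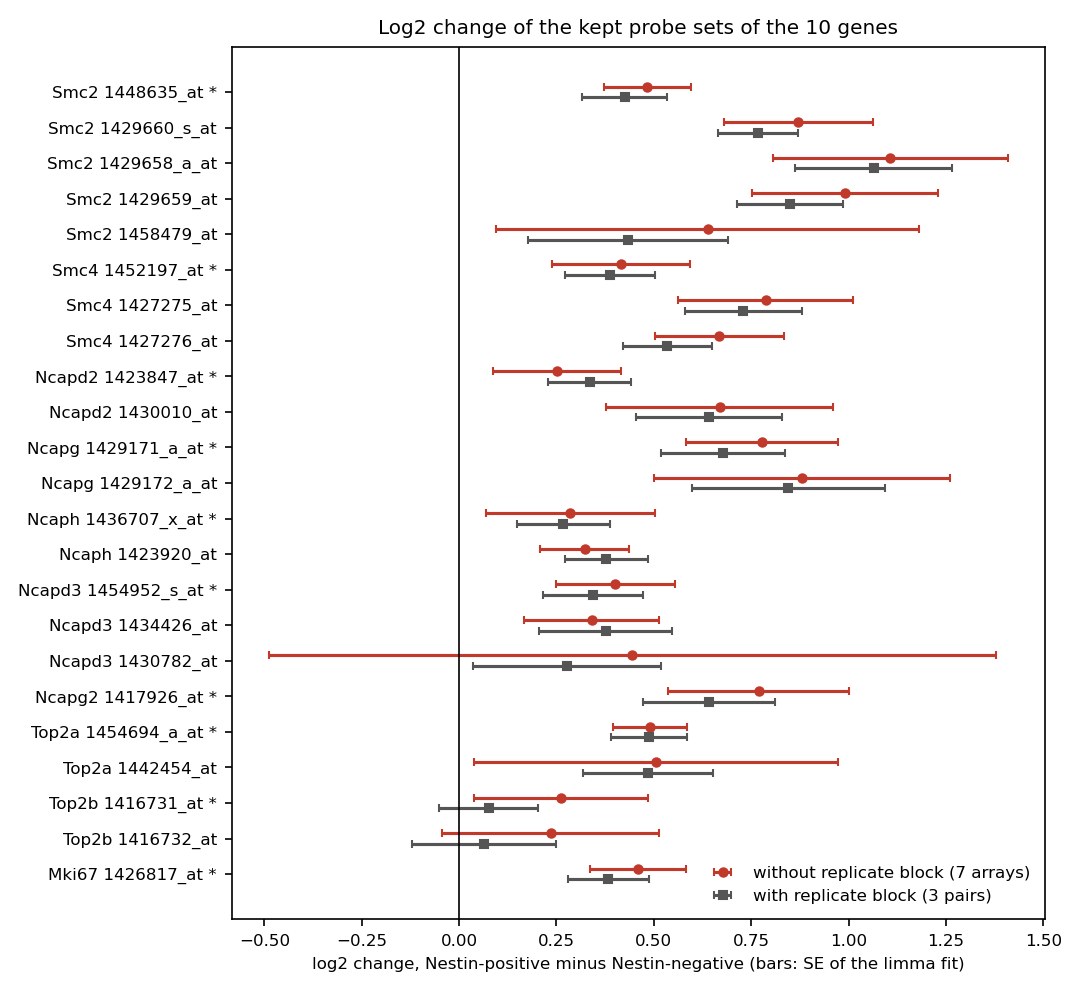
Log2 change, Nestin-positive minus Nestin-negative, of the 23 kept probe sets with the SE of the limma fit over probe sets, without the replicate block (red circles, 7 arrays) and with it (grey squares, 3 pairs); probe sets of a gene run from brightest to dimmest and an asterisk marks the one that stands for the gene. All 23 red points lie right of 0, the 2 furthest right belong to Smc2, and the Top2b points with the block lie nearest to 0.

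Within pairs of same-numbered samples, 7 of the 10 genes had the higher signal on the Nestin-positive side in all 3 pairs, against 19.0% of all genes tested. The exceptions were Ncapg2 (-0.062 on the log2 scale), Ncaph (-0.075) and Top2b (-0.34), each in pair 4 alone. Pair 1 gave the largest difference for 9 of the genes and pair 5 for Ncapg2. Ncapg differed by 1.23 in pair 1, 0.22 in pair 4 and 0.58 in pair 5, while Top2a was even across pairs at 0.60, 0.39 and 0.48. The large values in pair 1 go with its Nestin-negative sample, which was the lowest of the 7 arrays for all 10 genes, as it was for 22.6% of all genes tested and for 18 of 23 genes of a list of S phase and G2/M genes. Without this array the median change of the 10 genes was 0.29. Nestin-positive replicate 3, which has no partner, was the highest array for 6 of the 10 genes, against 18.5% of all genes, and without it the median was 0.39.

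**Figure D3:**
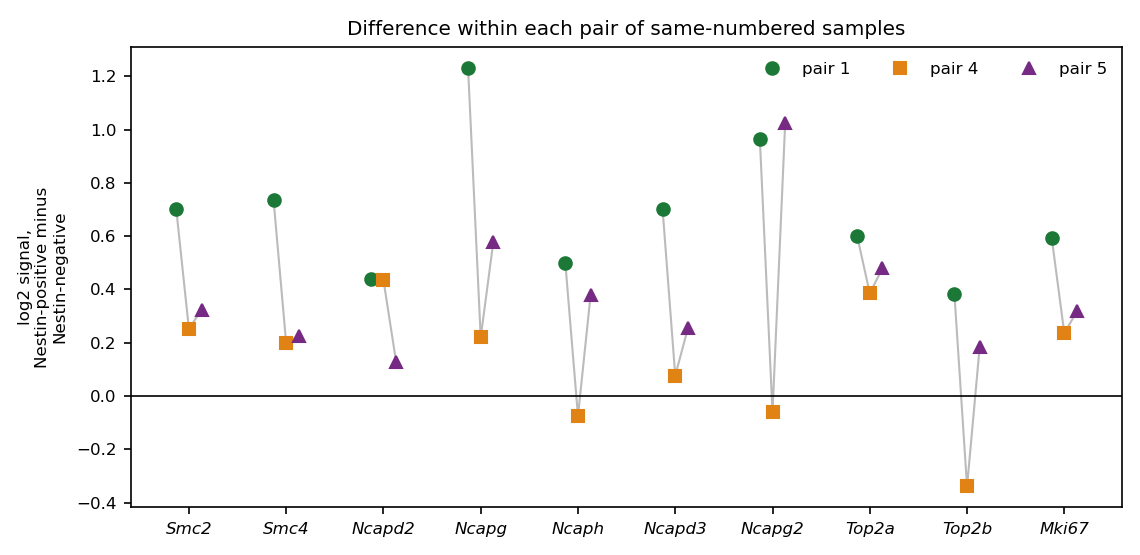
Difference in log2 signal, Nestin-positive minus Nestin-negative, within the pairs of replicates 1 (green circles), 4 (orange squares) and 5 (purple triangles) for the brightest probe set of each gene. Pair 1 is highest for every gene but Ncapg2, and pair 4 lies below 0 for Ncaph, Ncapg2 and Top2b.

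Genes that work beside the 10 had mostly positive log2 changes. The medians of their lists were smaller, though single genes reached the range of the 10. Of 20 listed partners of condensin and Ki-67, all measured, 18 had a positive log2 change, with a median of 0.25. Limma called 0 without the block (8 at an unadjusted p under 0.05, against 5.33% of all genes higher), and 9 rose with it, against 3.60%. Among them, Cenpe, a kinetochore motor, changed by 0.81 ± 0.20 (SE; 0.70 ± 0.15 with the block, adjusted p = 0.0032). Nusap1, a spindle microtubule protein, changed by 0.67 ± 0.20 (0.59 ± 0.12, adjusted p = 0.0019). Kif4, a chromokinesin that works with condensin on the chromosome axis, changed by 0.50 ± 0.12 (0.48 ± 0.12, adjusted p = 0.0134). Cdk1, the kinase that drives mitotic entry and phosphorylates condensin, changed by 0.40 ± 0.10 (0.39 ± 0.10, adjusted p = 0.0125). Nifk, which binds the forkhead-associated domain of Ki-67, had a log2 change of 0.028 ± 0.13 and did not pass in either fit (adjusted p = 0.950 and, blocked, 0.945).

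Cohesin, the related SMC complex that holds sister chromatids together, and the SMC5/6 complex gave 23 positive log2 changes of 24, with a median of 0.26. Limma called 0 (6 at an unadjusted p under 0.05, against 5.33% of all genes higher), and 4 rose with the block, against 3.60%. These were Sgo2a and Sgo1, protectors of centromeric cohesion (0.60 ± 0.13 and 0.42 ± 0.12 with the block), Esco2, an acetyltransferase that sets up cohesion in S phase (0.54 ± 0.14), and Smc6 (0.47 ± 0.10, adjusted p = 0.0052). The cohesin SMC genes Smc1a and Smc3 differed by 0.19 ± 0.11 and 0.23 ± 0.16 and did not pass in either fit. Stag2, a cohesin subunit, differed by 0.42 ± 0.17 (adjusted p = 0.285; 0.0986 with the block). Other topoisomerases and their repair partners had a median of 0.13 over 11 of 12 listed genes. Limma called 0 (2 at an unadjusted p under 0.05), and with the block only Blm, a helicase that unlinks DNA with topoisomerase III, rose (0.41 ± 0.12, adjusted p = 0.0350). The shares of all genes were again 5.33% and 3.60%. Top1, the type I enzyme, differed by 0.030 ± 0.16, and Topbp1, a checkpoint scaffold, by 0.34 ± 0.11 (adjusted p = 0.173; 0.0515 with the block).

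A list of S phase and G2/M genes had a median of 0.25 over 23 of 24 listed. Limma called 0 (9 had an unadjusted p under 0.05, against 5.33% of all genes higher), and 11 rose with the block, against 3.60%. Those with the smallest unadjusted p were Bub1b and Bub1, kinases of the spindle checkpoint (0.45 ± 0.10 and 0.60 ± 0.12 with the block), Cenpf, a kinetochore protein (0.65 ± 0.12), and Kif23, a motor of cytokinesis (0.50 ± 0.12). The median joins unlike parts. The S phase genes Pcna, Mcm2 to Mcm7, Rrm2, Tyms and Ung changed by -0.061 (Pcna) to 0.22 (Mcm4) without the block. None of them passed in either fit. The 11 that rose are all G2/M genes, with changes of 0.28 (Ube2c) to 0.72 (Cenpf) without the block. The G2/M genes Cdc20 (0.12) and Cdkn3 (0.25) did not pass. Core and linker histone genes had a median of -0.043 over 8 of 12, with 0 called by limma (1 had an unadjusted p under 0.05). With the block H2ax, the variant phosphorylated at DNA breaks, rose by 0.36 ± 0.11 and the H2A gene H2aw fell by 0.54 ± 0.11 on the log2 scale. Over all genes, 3.60% rose and 6.52% fell with the block.

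**Figure D4:**
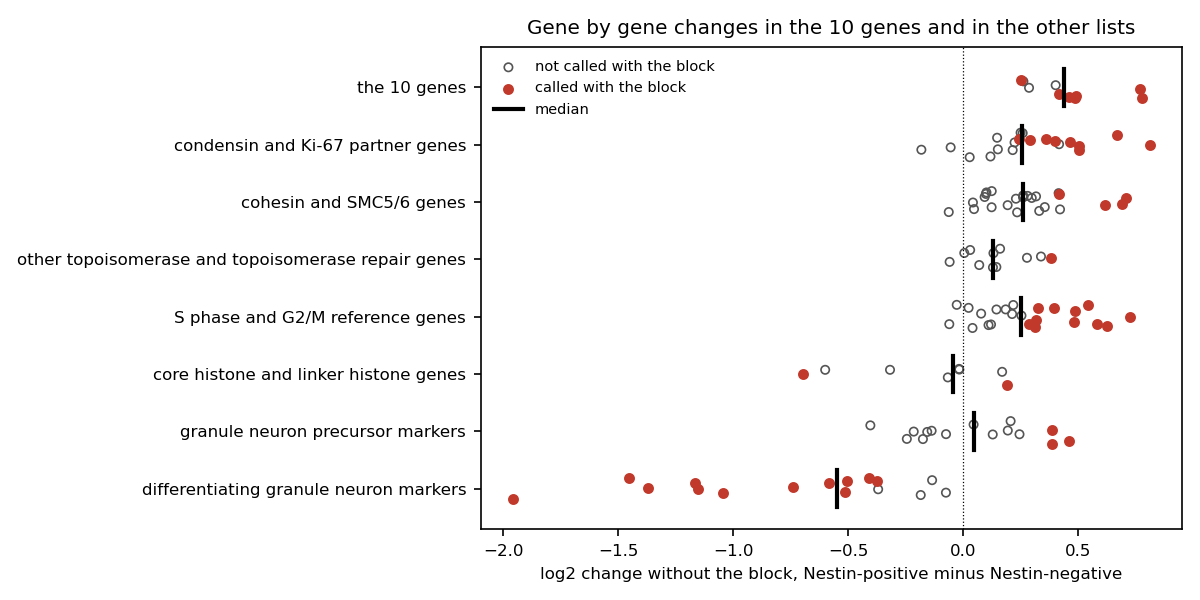
Log2 change without the block, Nestin-positive minus Nestin-negative, of each measured gene of the 10 described and of 7 other lists. Filled red points passed an adjusted p of 0.05 with the replicate block, open points did not, the black bar is the median of the list, and vertical position within a list has no meaning. The median of the 10 genes lies at 0.44, those of the partner, cohesin and cell cycle lists at 0.25 to 0.26, and that of differentiating granule neurons at -0.55. The cell cycle list joins S phase genes with G2/M genes, and all of its filled points are G2/M genes.

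Across the 7 arrays, log2 signals of the 10 genes correlated with r between 0.026 (Ncapd2 and Top2b) and 0.99 (Smc2 and Ncapg), and 13 of the 45 pairs of genes lay above 0.9. These are descriptions over 7 arrays that share their fraction and replicate differences. Top2a and Top2b correlated with r = 0.52. Of the genes tested, the 3 most like Top2a were Prkd1, a protein kinase D (r = 0.99), Knstrn, a kinetochore and spindle protein (0.98), and Suv39h2, a histone H3 methyltransferase (0.98). Prkd1 was called without the block (log2 change 0.85, adjusted p = 0.0403). The 3 most like Mki67 were Plk4, the kinase of centriole duplication (r = 0.997), Shcbp1 (0.99) and the receptor gene Calcrl (0.99). The 3 most like Top2b were the zinc finger gene Zik1, the methylcytosine dioxygenase gene Tet1 (0.99 each) and 0610010F05Rik (0.99).

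Markers of other cells differed between the fractions too. All 16 measured markers of differentiating granule neurons had negative log2 changes, 4 fell without the block (0.577% of all genes did), and 12 with it (6.52% of all genes). The 4 were L1cam, an adhesion molecule of growing axons (-1.96 ± 0.30), the potassium channel gene Kcnd2 (-1.45 ± 0.20), Mapt, which encodes the microtubule protein tau (-1.37 ± 0.25), and the transcription factor gene Neurod2 (-1.04 ± 0.15). The list's summed signal lay between 69745 and 86427 in Nestin-positive samples and between 99162 and 112938 in Nestin-negative samples. All 10 measured microglia and macrophage markers were negative, with sums of 359 to 1193 in Nestin-positive and 2196 to 8192 in Nestin-negative samples, and 2 of them stayed under the median of each Nestin-positive array. Of these 10, 2 (Csf1r and Lyz2) fell without the block and 10 with it. Lyz2 is 1 of the 2 that stayed under those medians. All 7 meningeal fibroblast markers were negative too, with sums of 4282 to 6576 and 6606 to 13126 in Nestin-positive and Nestin-negative samples (1 fell without the block, 6 with it). All 9 pericyte and smooth muscle markers were negative, with overlapping sums of 658 to 2133 and 1431 to 9798 in Nestin-positive and Nestin-negative samples (0 called without the block, where 6 had an unadjusted p under 0.05, and 8 lower with it). The other lists were mixed in sign, and limma called none of their genes without the block (0, 3, 3 and 2 at an unadjusted p under 0.05 in the order given here). In either direction, 1599 of all 11089 genes tested had an unadjusted p that low in limma. Of 9 endothelial markers 7 were negative, with sums of 528 to 1922 in Nestin-positive and 738 to 2153 in Nestin-negative samples, and 1 fell with the block. Of 14 astrocyte and Bergmann glia markers 8 were negative, with sums of 15580 to 38552 and 12686 to 29490, and with the block 2 rose and 6 fell. Of 6 oligodendrocyte lineage markers 4 were negative, with sums of 3391 to 4696 and 3837 to 4634, and with the block 2 rose and 2 fell. Of 4 GABAergic interneuron markers 3 were negative, with sums of 547 to 866 and 872 to 1184, and with the block 1 rose and 2 fell. Over all genes 3.60% rose with the block. Gpr17 of the oligodendrocyte list and Gad1 of the GABAergic list stayed under the median of each Nestin-positive array. Like the 2 such microglia markers, they passed the filter only through Nestin-negative samples, so the direction of their change comes from the filter and is no result. The counts of genes that fell with the block include all of these, and the microglia count without the block includes Lyz2. Of 6 red blood cell markers 0 passed the filter. In RNA from sorted cells, fewer cells of a type and less RNA per cell cannot be told apart, and the part of these cells in the values of the 10 genes was not tested.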

How the data were processed

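Total RNA of the sorted cells was biotin-labelled and hybridised to Affymetrix mouse whole-genome arrays, 1 per sample, per the labels' protocols. The deposited values are linear intensity, the MAS5 signal per the submitters' processing notes; its version is given in none of the sources used here. The mean without the lowest and highest 2% was 500 on each of the 7 arrays. MAS5 subtracts mismatch signal, so that ratios of dim values are noisy. Precision is limited by the number of arrays.

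The array has 45101 probe sets, including 64 controls that were not used. Names came from the platform annotation, with symbols updated through a RefSeq table of GRCm38.p6, as were list symbols known only as synonyms. The log2 of the deposited intensity was taken, and probe sets at or above the array median on at least 3 arrays were kept (23585, of which 20162 had 1 gene). The brightest stood for its gene (11089 genes). The test between fractions was limma's moderated one (version 3.58.1, R 4.3.3, lmFit and eBayes with a trend, two-sided), with Benjamini-Hochberg adjustment over all genes, and separately over all kept probe sets. Fits without a pair or array kept the same probe sets. The pairing check gave r = 0.71, 0.39 and 0.47 for replicates 1, 4 and 5, above the minimum of 0.1, against -0.60 to 0.19 for other pairs. Deviations from a group mean cancel out within a fraction, so a positive r with an array forces a negative r with another. The contrast with other pairs is thus partly built into the check. Nestin-positive replicates 3 and 4 also passed this minimum with Nestin-negative replicate 5 (0.14 and 0.19). The minimum alone thus does not single out same-numbered samples. The blocked fit has 2 residual degrees of freedom per gene and a median of 20.2 after moderation, so its p-values rest mostly on spread pooled over genes. Blocked fits without a pair have fewer residual degrees of freedom still, and their p-values rest on pooled spread even more. The random block used statmod 1.5.0. The fits were tested on simulated data.

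Samples were grouped by title. Named genes are every member with every probe set, up to 4 genes per list in the order of their p-values, the 3 genes most like Top2a, Top2b and Mki67, and Nes; other list genes were named after their values were seen. Members and lists were chosen with earlier results of these data known.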

Additional observations from a re-analysis of the deposited data

Results flagged for a closer look

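Mki67 stands here because Nestin-positive replicate 3, at 9246, stood far from the other 3 Nestin-positive samples (7326 to 7637). Its gap to the nearest of them was 0.838 of the group's range, above Dixon's critical value for 4 samples at 95%. It was 1 of 26 values so examined, and chance flags about 1 in 20 groups. Without this array the log2 change of Mki67 was 0.38 (limma, adjusted p = 0.244), against 0.46 with it.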

How the results depend on the processing

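The log2 change of each of the 10 genes stayed positive and did not pass the threshold in any of the 14 alternatives without a replicate block. Across the 21 alternatives in all, 169 of 210 values kept sign and side of the threshold, 40 passed where they had not, all of these with a block, and 1 turned sign: Top2b was -0.077 with the block and without the pair of replicate 1.

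The number of the 10 genes called higher was 0 without a block, also with each array left out (0 to 0; 5 to 8 of them had an unadjusted p under 0.05 in limma then). It was 7 with the replicate block, 5 with a random replicate block, 2, 8 and 6 with the replicate block and without replicate 1, 4 or 5, and, in alternatives chosen after seeing the data, 5 with the block and quantile normalization and 7 with the block and the mean of probe sets. No alternative called any of the 10 genes lower. Of the 23 probe sets, 9 were called higher with the block, against 0 without it. The cause of these differences between fits was not tested.

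Over all genes, 19 were called higher and 64 lower. With the replicate block these were 399 and 723, with a random replicate block 290 and 564, and with the block without replicate 1, 4 or 5 they were 182 and 546, 567 and 886, and 311 and 598. The block with quantile normalization gave 269 and 549, and with the mean of probe sets 323 and 645. Without the block, quantile normalization gave 9 and 13, and no trend gave 0 and 0 (551 and 1022 at an unadjusted p under 0.05 in limma). Genes called lower were 39 without the filter, 98 with values raised to the array median and 29 with the mean of probe sets. Leaving out each array gave 0 to 17 higher and 0 to 80 lower; both were 0 without Nestin-positive replicate 5 (462 and 858 at an unadjusted p under 0.05 in limma) or Nestin-negative replicate 4 (499 and 659). Leaving out Nestin-negative replicate 1 gave 2 and 3, Nestin-negative replicate 5 gave 1 and 0 (815 lower, unadjusted), Nestin-positive replicate 1 gave 6 and 4, and Nestin-positive replicate 3 gave 11 and 34.

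The median change of the 10 genes was 0.29 to 0.53 with each array left out. Top2a minus Top2b ranged over 0.089 to 0.41 with exact permutation p-values of 0.1 to 0.8, where fewer arrays allow fewer splits. Signals below the array median limit only the 2 probe sets removed by the filter and a dim Ncapd3 probe set, which lay below it on 1 Nestin-negative array.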

Other observations

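Several dim probe sets of these genes were highest on the replicate 1 arrays, which also have the highest array medians of the series (93.7 on the Nestin-positive and 94.5 on the Nestin-negative array, against 64.4 to 84.1 on the others). The third Ncapd3 probe set gave 588, 246, 64.9 and 97.0 in Nestin-positive replicates 1, 3, 4 and 5, and 474, 76.4 and 57.5 in Nestin-negative replicates 1, 4 and 5. The brightest Ncapd3 probe set had its lowest signal of all, 993, on Nestin-negative replicate 1. Over the 23 kept probe sets of the 10 genes, 6 had their highest signal on Nestin-positive replicate 1, while none of the 10 brightest ones did. The part of array background in the dim values was not tested.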
